A study of Homo sapiens with 8 samples.

Results

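RNAseq counts were examined for 10 genes at the core of canonical wnt-signaling in RKO cells: the 3 Dishevelled genes DVL1, DVL2 and DVL3, the beta-catenin gene CTNNB1, and the destruction complex genes AXIN1, APC, GSK3A, GSK3B, CSNK1A1 and BTRC. They were chosen by their known place in the pathway, with earlier results of these data known, and make up 10 of the 57992 genes counted. RKO cells are an established line from a human colon carcinoma, with intact beta-catenin signaling. In 4 of the 8 samples the cells received control siRNA and in 4 an siRNA against A20, the ubiquitin-editing enzyme encoded by TNFAIP3. All 8, the control samples included, then received 50 ng/mL wnt3a for 24 hours, so the response to wnt3a itself could not be measured. An siRNA lowers its target in part, a single cell line was used, and neither the labels nor the methods say whether the replicates were separate cultures. The p-values below measure only the spread between these samples, which may be technical.

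In the absence of wnt, axin and APC hold beta-catenin beside the kinases CK1 alpha and GSK3, which phosphorylate it so that the F-box protein beta-TrCP can mark it for degradation. Wnt binding to its receptors recruits Dishevelled, which draws axin away from the complex, and beta-catenin then enters the nucleus and acts with TCF factors. In colon carcinomas this pathway is often switched on by loss of APC or by mutation of beta-catenin. Much of this control acts on protein modification and stability, which transcript counts do not show.

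The 4 control siRNA samples held 5.47 ± 0.388 CPM of TNFAIP3 transcript (SD, n = 4) and the 4 A20 siRNA samples 3.33 ± 0.215 CPM. CPM are counts scaled to a common library size, here with edgeR's TMM factors. The control values were 4.92, 5.83, 5.59 and 5.54 CPM and the A20 siRNA values 3.47, 3.01, 3.40 and 3.43 CPM, so the groups did not overlap. The log2 fold change was -0.71 (edgeR quasi-likelihood test, Benjamini-Hochberg adjusted p = 0.00258), and the exact two-sided permutation p of 0.0286 was the smallest that 4 against 4 samples can give. On average 60.8% of the control level was left. RIPK4, a kinase known to phosphorylate Dishevelled and studied here as an A20 partner, had 5 reads in all 8 libraries together and between 0 and 3 in any library, which was too few to test. The paper reports RIPK4 protein in RKO cells by western blot, so these counts do not show that the protein was absent.

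Depth was between 21226451 and 34194273 counts per sample, so that 3 counts corresponded to 0.0875 to 0.141 CPM, a floor that covers counting error only. Of 9 colonic epithelial markers, EPCAM, KRT8, KRT18 and CDX2 were detected in every library, VIL1 reached 1 count, and KRT19, KRT20, CDX1 and CDH1 (E-cadherin, a junction partner of beta-catenin) were at 0 throughout. The summed level of the 9 markers was 140.4 to 151.6 CPM with control siRNA and 138.1 to 146.3 CPM with A20 siRNA, while fibroblast, leukocyte and endothelial markers each summed to at most 0.143 CPM. One property of the libraries moved with the groups. Across tested genes, the log2 deviation of a gene from its mean over samples was correlated with its exonic length, with Spearman's rho between -0.20 and -0.11 in control replicates 2, 3 and 4 and between 0.0686 and 0.178 in A20 siRNA replicates 1, 3 and 4. Control replicate 1 (0.0794) and A20 siRNA replicate 2 (-0.0816) went the other way from their groups. Values without these libraries, and with a correction for length and GC content, are given below where they change a call or a direction among the 10 genes.

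The question was whether knockdown of A20 altered the transcripts of these 10 genes in wnt3a-stimulated cells. None of the 10 had an adjusted p-value under 0.05 by edgeR's quasi-likelihood test, against 1.25% of the 13412 genes tested. Unadjusted p-values were under 0.05 for 3 of the 10, DVL3 and APC higher and CSNK1A1 lower with A20 siRNA, where 16.2% of all tested genes had such a p-value. DESeq2 and limma-voom also called 0 of the 10, each with 2 unadjusted p-values under 0.05. The CPM values of the groups did not overlap for 2 of the 10, DVL3 and CSNK1A1, against 7.61% of all tested genes.

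Point estimates were above 0 for 7 genes and below 0 for 3, and the largest was a log2 fold change of 0.07. The median size of the change, regardless of sign, was 0.04 on the log2 scale over the 10 genes, 0.05 over all tested genes and 0.18 over the 167 genes with an adjusted p-value under 0.05. Each gene had between 1175 reads (BTRC) and 18881 reads (CTNNB1) per library, and the 95% intervals extended 0.04 to 0.07 on the log2 scale to either side of the estimate. Taken over the 10 genes, the intervals ran from 7.34% below to 10.3% above the control level, and for 9 genes they lay within 10% of it. These intervals bound the change of each gene in the fit of all 8 samples only. They do not show that any gene was equal in both groups. Without both libraries of opposite length trend, chosen after the data were seen, the log2 interval of APC ran from 0.08 to 0.19. As in any bulk sample, fewer expressing cells and less RNA per cell cannot be told apart.

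**Figure D1:**
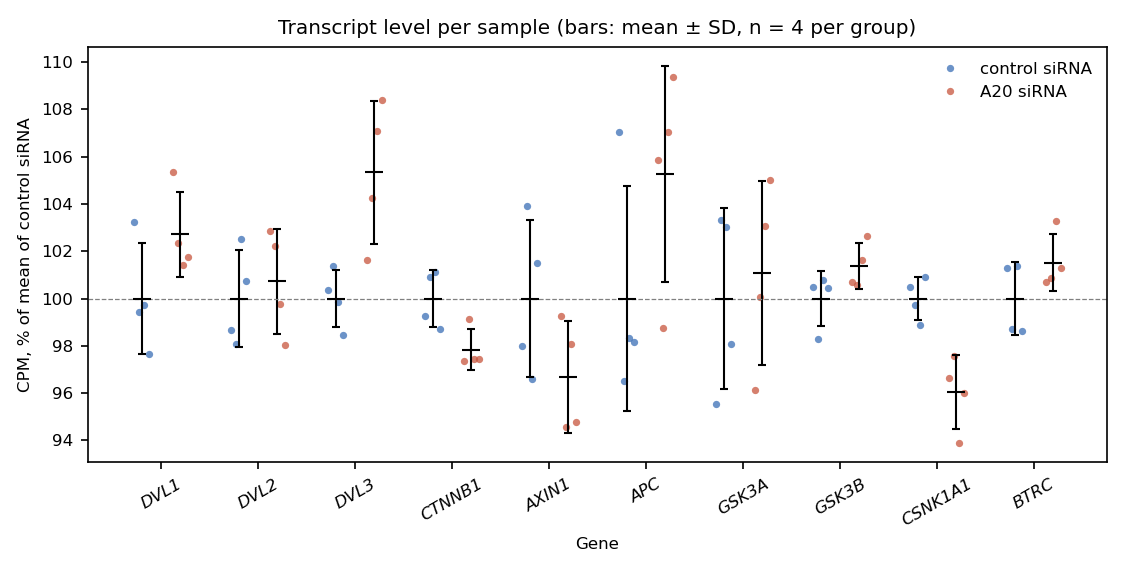
CPM of each of the 10 genes in every sample, as a percent of the gene's mean in the control siRNA samples (vertical axis), with control siRNA in blue, A20 siRNA in red, and bars for the mean ± SD of 4 samples. The red points lie wholly above the blue ones for DVL3 and wholly below them for CSNK1A1, and the groups overlap for the other 8 genes.

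The sequences upstream of DVL3 and CSNK1A1 are shown because these were the 2 genes whose groups did not overlap. They are the bases before the annotated start, from RefSeq on build GRCh38.p14, at chr3:184155127-184155376 on the plus strand for DVL3 and at chr5:149551472-149551689 on the minus strand for CSNK1A1, with capitals marking GC boxes (GGGCGG, or CCGCCC where the box is on the other strand).
DVL3: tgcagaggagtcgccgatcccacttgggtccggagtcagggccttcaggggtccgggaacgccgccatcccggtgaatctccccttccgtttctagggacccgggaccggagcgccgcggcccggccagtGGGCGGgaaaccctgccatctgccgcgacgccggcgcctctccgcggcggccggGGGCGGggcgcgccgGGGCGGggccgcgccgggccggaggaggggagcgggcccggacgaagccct
CSNK1A1: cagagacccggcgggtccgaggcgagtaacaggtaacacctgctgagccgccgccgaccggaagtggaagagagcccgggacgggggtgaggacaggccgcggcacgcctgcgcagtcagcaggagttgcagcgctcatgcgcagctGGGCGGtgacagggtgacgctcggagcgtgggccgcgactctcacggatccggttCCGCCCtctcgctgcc
DVL3 had 3 GC boxes in these bases and CSNK1A1 had 2, and neither printed stretch held any other motif searched.

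RefSeq promoter windows of 250 bases before to 50 bases after a start were found for 9 of the 10 genes, 11 windows in all, and none was found for BTRC. On either strand the GC box was present in 9 of the 11 windows and in at least 1 window of each of the 9 genes, where 45% of 35116 windows genome-wide and 66.9% of the 14297 windows of tested genes held it. The windows were rich in G and C, with a median of 69.3% against 58.7% over all windows. The core shared by TCF and LEF sites, CTTTG, occurred in 1 of the 11 windows, a second window of CSNK1A1 with a GC content of 40%, against 47.5% of all windows and 39.7% of those of tested genes. This window also held the TATA box TATAAA and a CCAAT box. CACGTG, an E-box, was found in windows of APC and DVL2 (7.26% of all windows), and CCAAT in windows of APC, CSNK1A1, DVL2 and GSK3B (34.6% of all windows). A match is a run of letters and not a bound site, and the lack of one says nothing about a factor outside these windows.

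Dishevelled proteins relay the signal from the wnt receptors to the destruction complex. DVL3 (ENSG00000161202, chr3:184155377-184173614, plus strand) had the smallest p-value of the 10. Its levels were 101.8, 102.8, 101.3 and 99.9 CPM in control siRNA replicates 1 to 4 and 103.1, 105.8, 108.6 and 110.0 CPM in A20 siRNA replicates 1 to 4. Every A20 siRNA sample lay above every control sample, but the lowest of them, replicate 1 at 103.1 CPM, was close to the highest control at 102.8 CPM. The mean was 101.5 ± 1.22 CPM against 106.9 ± 3.06 CPM (SD, n = 4 each). The log2 fold change of DVL3 was 0.07 with a 95% interval of 0.02 to 0.13 (edgeR adjusted p = 0.166). This estimate was between 0.06 and 0.09 when any one sample was left out, and 0.06 with the length and GC correction.

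DVL1 (ENSG00000107404, chr1:1335276-1349418, minus strand) measured 128.2, 123.5, 123.8 and 121.3 CPM with control siRNA. With A20 siRNA its values were 130.8, 127.1, 125.9 and 126.4 CPM, so that control replicate 1 lay within the A20 siRNA range. DVL1 had a log2 fold change of 0.04 (interval -0.01 to 0.09, edgeR adjusted p = 0.459), and 0.02 without A20 siRNA replicate 1. For DVL2 (ENSG00000004975, chr17:7225342-7234517, minus strand), the substrate reported for RIPK4, the control values were 78.4, 78.0, 81.5 and 80.1 CPM. The A20 siRNA values were 81.8, 81.3, 79.3 and 77.9 CPM. The groups of DVL2 covered nearly the same range, and its log2 fold change was 0.01 (interval -0.04 to 0.07, adjusted p = 0.862). It was -0.00120 when A20 siRNA replicate 1 was left out.

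Beta-catenin is both the substrate of the destruction complex and the transcriptional effector of the pathway. CTNNB1 (ENSG00000168036, chr3:41194741-41260096, plus strand) was the most abundant of the 10 transcripts. It measured 561.2, 570.6, 572.0 and 558.3 CPM in the control samples and 550.6, 560.6, 551.0 and 551.1 CPM in the A20 siRNA samples. A20 siRNA replicates 1, 3 and 4 lay below all controls, and replicate 2 lay inside the control range. The mean was 565.5 ± 6.77 CPM against 553.3 ± 4.84 CPM, or 97.8% of control. On the log2 scale the difference was -0.03 (interval -0.07 to 0.01, edgeR adjusted p = 0.468). With the length and GC correction it was -0.05 (interval -0.09 to -0.00469, edgeR adjusted p = 0.263), below 0 in both fits and without an adjusted p-value under 0.05 in either.

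Axin and APC are the scaffolds of the destruction complex. APC (ENSG00000134982, chr5:112707518-112846239, plus strand), a tumor suppressor commonly lost in colon cancer, varied most between replicates. Its control values were 123.4, 111.3, 113.3 and 113.1 CPM and its A20 siRNA values 122.0, 113.9, 123.4 and 126.1 CPM. Control replicate 1 stood with 3 of the A20 siRNA samples, and A20 siRNA replicate 2 stood with the other 3 controls. These are the 2 libraries whose length trend went against their groups, and with 13623 exonic bases APC is longer than the median tested gene at 4982. The mean was 115.3 ± 5.47 CPM against 121.3 ± 5.27 CPM, a log2 fold change of 0.07 with an interval of 0.000143 to 0.14 (edgeR adjusted p = 0.308). APC was the only one of the 10 whose call depended on the samples. Without control replicate 1 its log2 fold change was 0.10 (edgeR adjusted p = 0.0407), and without both of these libraries, a choice made after the data were seen, it was 0.13 (adjusted p = 0.00310). With the length and GC correction on all samples it was 0.05 (interval -0.00366 to 0.11, adjusted p = 0.353). GSK3B, longer than APC with 17871 exonic bases, was at 0.02 both with all samples and without both libraries. CTNNB1, with 11759, was at -0.03 and -0.04. Calls over all tested genes were 997 of 13529 without control replicate 1 and 1097 of 13384 without both libraries. With all samples they were 167 of 13412. The part of the length trend in the APC difference was not tested beyond these values.

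AXIN1 (ENSG00000103126, chr16:287440-352723, minus strand) measured 68.2, 72.3, 67.2 and 70.7 CPM with control siRNA and 69.1, 65.8, 68.3 and 66.0 CPM with A20 siRNA. The groups overlapped, with the 2 lowest values among the A20 siRNA samples and the 2 highest among the controls. Its log2 fold change was -0.05 (interval -0.11 to 0.02, adjusted p = 0.478), and -0.03 without control replicate 2. With the length and GC correction it was -0.06 (interval -0.12 to -0.00473, edgeR adjusted p = 0.276). AXIN2, its paralog and a well-known wnt target that feeds back on the pathway, was far lower at about 3 CPM. AXIN2 values were 3.09, 3.29, 3.16 and 3.21 CPM in the controls and 2.62, 2.76, 2.74 and 2.87 CPM with A20 siRNA. These groups did not overlap, but AXIN2 had only 61 to 93 reads per library. Its log2 fold change was -0.22 with an interval of -0.44 to -0.000444 (edgeR unadjusted p = 0.0554, adjusted p = 0.324). The interval just excluded 0 although the unadjusted p-value was above 0.05, so AXIN2 is not counted as lower here. APC2, the paralog of APC, was at 5.54 ± 0.812 and 5.46 ± 0.497 CPM, with a log2 fold change of -0.03 (interval -0.24 to 0.18).

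**Figure D2:**
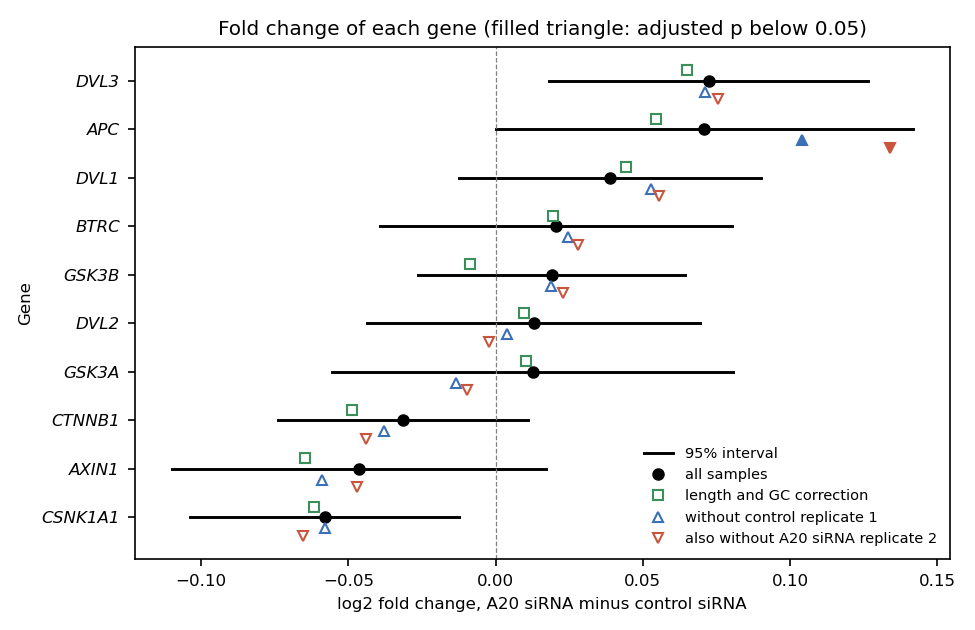
Log2 fold change of A20 siRNA over control siRNA for each gene (horizontal axis, ordered by value), with black points and 95% intervals for all 8 samples, squares for the length and GC correction, and triangles for fits without control replicate 1 and also without A20 siRNA replicate 2. All estimates from the 8 samples lie between -0.06 and 0.07, and the filled triangles, at 0.10 and 0.13 for APC, are the only ones with an adjusted p-value under 0.05.

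CK1 alpha, encoded by CSNK1A1 (ENSG00000113712, chr5:149492982-149551471, minus strand), places the priming phosphate on beta-catenin. CSNK1A1 levels were 212.8, 211.1, 209.4 and 213.6 CPM in the control samples and 204.6, 206.6, 198.8 and 203.3 CPM in the A20 siRNA samples. Every A20 siRNA value was below every control value, the nearest pair being 206.6 and 209.4 CPM. The mean was 211.7 ± 1.88 CPM against 203.3 ± 3.31 CPM, 96.1% of control with an interval of 93.1% to 99.1%. The log2 fold change was -0.06 (interval -0.10 to -0.01, edgeR adjusted p = 0.188), and it ranged from -0.07 to -0.05 as single samples were left out.

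A long noncoding RNA, ENSG00000230551 (chr5:149494314-149504670), lies on the same strand and shares 4194 of the 8505 exonic bases of CSNK1A1, or 49.3%. It had 188 to 382 reads per library, with 7.36 to 10.1 CPM in the controls and 8.02 to 11.1 CPM with A20 siRNA. Its log2 fold change was 0.25 (interval 0.04 to 0.46, edgeR adjusted p = 0.220), opposite in sign to that of CSNK1A1. How reads in the shared bases were assigned is not given in the sources used here. They may have gone to either gene or to neither, so the level of each is uncertain. The part of this overlap in the CSNK1A1 value was not tested. The processed copies CSNK1A1P1 and CSNK1A1P3 held at most 4 and 1 reads. Other CK1 kinases can act on Dishevelled and the wnt receptors. Of these, CSNK1D was at 88.1 ± 2.5 CPM in the controls and 92.4 ± 1.31 CPM with A20 siRNA (log2 fold change 0.07, edgeR adjusted p = 0.198), and CSNK1E was at 208.2 ± 5.53 and 213.1 ± 1.98 CPM (log2 fold change 0.03, adjusted p = 0.516).

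GSK3 alpha and beta complete the phosphorylation of beta-catenin. GSK3B (ENSG00000082701, chr3:119821321-120094994, minus strand) measured 148.0, 144.8, 148.4 and 147.9 CPM in the controls and 148.3, 148.1, 149.6 and 151.1 CPM with A20 siRNA. The groups overlapped narrowly, control replicate 2 being the lowest sample. The log2 fold change of GSK3B was 0.02 (interval -0.03 to 0.06, adjusted p = 0.723), and it turned to -0.02 with the length correction and to -0.01 with the length and GC correction. It was 0.00936 without control replicate 2 and 0.0118 without A20 siRNA replicate 4. GSK3B has 17871 annotated exonic bases, the most of the 10 genes.

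GSK3A (ENSG00000105723, chr19:42226225-42242625, minus strand) had control values of 77.8, 84.1, 83.9 and 79.9 CPM and A20 siRNA values of 78.3, 81.5, 83.9 and 85.5 CPM. The ranges of the groups were nearly the same, and the log2 fold change was 0.01 (interval -0.06 to 0.08, adjusted p = 0.893). Leaving out control replicate 1 gave -0.01. The antisense neighbour ZNF526 shares 3.41% of the exonic bases of GSK3A, and since no strand setting is given, reads there could come from either gene.

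BTRC (ENSG00000166167, chr10:101354033-101557321, plus strand) encodes the F-box protein beta-TrCP, which recognises phosphorylated beta-catenin. It was the least abundant in CPM, at 55.2, 53.8, 55.3 and 53.8 CPM with control siRNA and 54.9, 55.0, 56.3 and 55.2 CPM with A20 siRNA. The groups overlapped and the log2 fold change was 0.02 (interval -0.04 to 0.08, adjusted p = 0.778). It was 0.0114 without A20 siRNA replicate 3, and 0.0127 and 0.0126 without control replicates 2 and 4. FBXW11, the second beta-TrCP gene, was at 139.9 ± 1.85 and 136.5 ± 1.47 CPM, a log2 fold change of -0.04 (interval -0.08 to 0.01, adjusted p = 0.455).

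The genes also differed in how far replicates spread. The coefficient of variation within a group was largest for APC, 4.75% in the controls and 4.34% with A20 siRNA, where counting alone would give 1.78%. GSK3A followed with 3.82% and 3.84% against 2.15% from counting. For BTRC, the least counted gene, the replicates differed by less than counting alone would give, with 1.54% and 1.17% against 2.61%, and for GSK3B the values were 1.14% and 0.951% against 1.59%. CTNNB1, the most counted, varied by 1.20% and 0.876% against 0.819%. Over all tested genes the biological coefficient of variation was 2.73%. Unlike the values above, it leaves out counting noise, so they are not directly comparable.

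Levels can be compared between genes only per length. Per kilobase of all annotated exons, over all 8 samples, CTNNB1 was highest at 47.6 ± 0.724 CPM per kb (SD, n = 8), followed by DVL1 at 32.4 ± 0.771, CSNK1A1 at 24.4 ± 0.604 and DVL3 at 16.5 ± 0.572. DVL2 (14.995 ± 0.300) and GSK3A (14.2 ± 0.508) came next, with ranges over samples that overlapped. The remaining 4 genes lay close together, AXIN1 at 9.08 ± 0.296, APC at 8.68 ± 0.436, BTRC at 8.31 ± 0.125 and GSK3B at 8.30 ± 0.101 CPM per kb, and each overlapped its neighbour in this order. All 10 were above the median of tested genes, 5.11 CPM per kb, and the highest was 5.73 times the lowest. The level of CSNK1A1 is less certain. It shares 49.3% of its exonic bases with ENSG00000230551, and whether reads there were assigned to either gene or left out is not given. The order depended on the length used. With the length of the longest annotated transcript, 8 of the 10 ranks moved, GSK3B stood at 19.1 CPM per kb rather than 8.30, and the highest was 12.7 times the lowest, with CTNNB1 first on both scales.

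**Figure D3:**
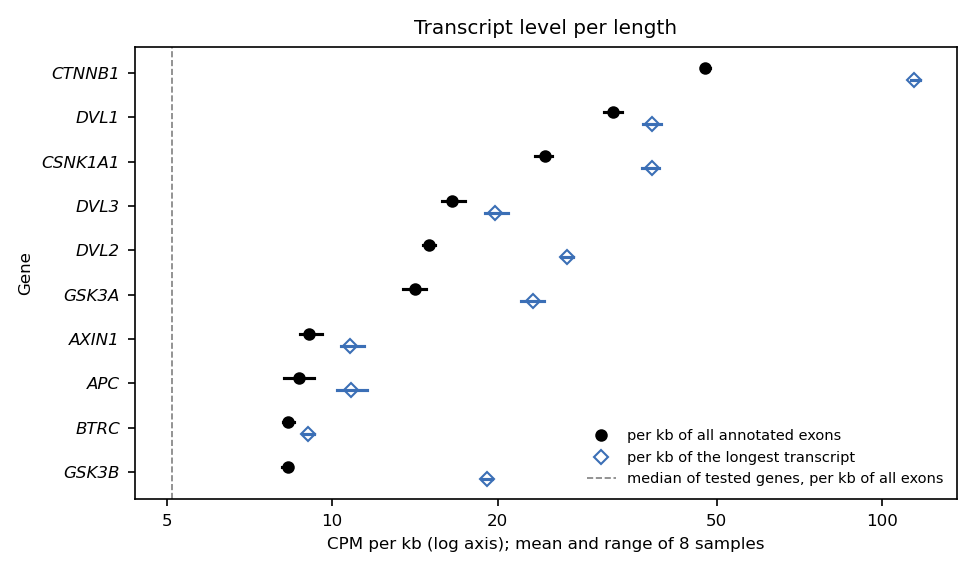
Transcript level per kilobase (horizontal log axis, CPM per kb) for each gene as the mean and range of 8 samples, by all annotated exons (black points) and by the longest transcript (open diamonds), with the median of tested genes by all exons as a dashed line. CTNNB1 is highest on both scales, at 47.6 and 114 CPM per kb, and GSK3B moves from rank 10 to rank 7 with the longest transcript.

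The same scale gives the makeup of each gene family. DVL1 supplied 50.7 ± 0.632% of Dishevelled transcripts per length with control siRNA and 50.7 ± 0.582% with A20 siRNA, DVL2 23.7 ± 0.594% and 23.2 ± 0.419%, and DVL3 25.5 ± 0.314% and 26.1 ± 0.888% (SD, n = 4). By the longest transcript DVL1 still had the largest share, 45.0% over all samples, but DVL2 then exceeded DVL3. AXIN1 made up 93.8 ± 0.102% and 94.4 ± 0.304% of axin transcripts and APC 95.1 ± 0.730% and 95.4 ± 0.343% of those of its family. GSK3A accounted for 63.1 ± 1.05% and 63.0 ± 0.721% of GSK3 transcripts, and for 54.8% over all samples by the longest transcript.

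In contrast, BTRC was the lesser of the beta-TrCP genes, with 24.7 ± 0.503% and 25.5 ± 0.0848% beside FBXW11. Among the CK1 genes compared, CSNK1A1 took 40.0 ± 0.519% and 38.3 ± 0.542%, CSNK1E 47.1 ± 0.430% and 48.2 ± 0.509%, and CSNK1D 12.9 ± 0.259% and 13.5 ± 0.211%. These CK1 shares, like the level of CSNK1A1 per length, are uncertain because of the bases that CSNK1A1 shares with ENSG00000230551. CTNNB1 had nearly all transcripts of its pair, since JUP (plakoglobin, its close relative at junctions) had 5 reads in all 8 libraries together. These shares are descriptions and were not tested.

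Other genes of the pathway were examined in 3 lists. Of 29 further destruction complex genes, among them the CK1 and PP2A subunits, the SCF ligase subunits and the tankyrases that degrade axin, 27 were tested and 0 had an adjusted p-value under 0.05 (edgeR). Unadjusted p-values were under 0.05 for 6 of them, 4 higher and 2 lower, where 16.2% of all tested genes had such a p-value, and the median log2 fold change was -0.00168 against 0.00275 for all tested genes. PPP2CB, a catalytic subunit of PP2A, had the smallest p-value, at 142.9 ± 4.30 CPM in the controls and 132.3 ± 5.01 CPM with A20 siRNA. The groups did not overlap, and its log2 fold change was -0.11 (interval -0.17 to -0.05, edgeR adjusted p = 0.0614). USP34, a deubiquitinase of axin, was at 145.6 ± 7.26 and 154.8 ± 5.36 CPM with overlapping groups (log2 fold change 0.09, adjusted p = 0.173). The other lower gene, chosen here after its values were seen, was PPP2R1A, a PP2A scaffold subunit, with a log2 fold change of -0.06 (adjusted p = 0.192).

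Of 26 Dishevelled partners, which include inhibitors, ubiquitin ligases and planar polarity proteins, 16 were tested and 0 called. Unadjusted p-values were under 0.05 for 3 of the 16, near the 16.2% of all tested genes, and these 3 were higher with A20 siRNA, while over the list 7 estimates were above 0 and 9 below. CCDC88C (Daple), a Dishevelled-binding protein, was at 35.6 ± 2.95 CPM in the controls and 40.5 ± 0.978 CPM with A20 siRNA. Its log2 fold change was 0.18 (interval 0.08 to 0.28, edgeR adjusted p = 0.0585), with control replicate 1, at 40.0 CPM, inside the A20 siRNA range. HUWE1, a ubiquitin ligase that acts on Dishevelled, was at 471.5 ± 39.0 and 526.7 ± 22.8 CPM, with overlapping groups and a log2 fold change of 0.16 (interval 0.07 to 0.25, adjusted p = 0.0614). The third, named after its values were seen, was NKD1, an inhibitor that binds Dishevelled, at 0.12 (adjusted p = 0.277). The list's median was -0.00470. Among the 10 partners with too few counts to test, DACT2, CXXC4, DAAM2, PRICKLE2 and VANGL2 were at 0 in every library.

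Of 20 beta-catenin partners, covering junction proteins and nuclear cofactors, 15 were tested and 0 called. The list's median log2 fold change was 0.02. Unadjusted p-values were under 0.05 for 2 of the 15, against 16.2% of all tested genes. They were the acetyltransferases EP300 and CREBBP, coactivators of beta-catenin. EP300 was at 34.99 ± 2.37 CPM in the controls and 38.9 ± 1.32 CPM with A20 siRNA. Its log2 fold change was 0.15 (interval 0.05 to 0.24, edgeR adjusted p = 0.0994), and here too control replicate 1, at 38.5 CPM, lay inside the A20 siRNA range. CREBBP was at 98.5 ± 4.10 and 103.5 ± 3.45 CPM (log2 fold change 0.07, adjusted p = 0.281). The 5 not tested were JUP, CDH1, CDH2, CDH3 and PYGO1. CDH1 and CDH2, the classical cadherins that anchor beta-catenin at the membrane, had 0 reads in every library.

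These partner calls moved with the method and the samples used. With all 8 samples, DESeq2 called PPP2CB and CCDC88C (adjusted p = 0.0499 and 0.0408), among 205 calls over 13412 genes. Without the filter on low counts, edgeR called PPP2CB, CCDC88C, HUWE1 and EP300 (adjusted p = 0.00407, 0.00121, 3.58e-08 and 0.0244), among 624 calls over 28754 genes. With the filter, edgeR gave HUWE1 an adjusted p of 0.0614. HUWE1 values overlapped, at 424.0 to 516.8 CPM in the controls and 493.1 to 542.6 CPM with A20 siRNA. Its small unfiltered value thus depends on this setting, and the reason was not tested. Without control replicate 1, adjusted p-values fell under 0.05 for 6 partners, PPP2CB, PPP2R1A, USP34, CCDC88C, HUWE1 and EP300. Their log2 fold changes were then -0.13, -0.08, 0.11, 0.24, 0.20 and 0.20 (edgeR adjusted p = 0.00994, 0.0443, 0.0294, 0.000663, 0.00197 and 0.00403). Over all genes, this fit called 997 of 13529, against 167 of 13412 with all 8 samples. Leaving out A20 siRNA replicate 1 alone led to a call of PPP2CB (edgeR adjusted p = 0.0348), among 200 calls over 13532 genes. Leaving out A20 siRNA replicate 2 alone did so for PPP2CB, CCDC88C and HUWE1 (0.0488, 0.0488 and 0.0281), among 277 over 13529. Without both control replicate 1 and A20 siRNA replicate 2, a choice made for their length trend after the data were seen, CREBBP joined the 6. The log2 fold changes were then -0.14 for PPP2CB, 0.26 for CCDC88C, 0.24 for HUWE1 and 0.22 for EP300 (edgeR adjusted p = 0.00761, 0.000495, 0.000444 and 0.00194). Over all genes, the fit without both libraries called 1097 of 13384. The annotated exons of CCDC88C, HUWE1, EP300, USP34 and CREBBP total 12426, 17780, 11692, 18443 and 15479 bases, all longer than the median tested gene. Of the 2 partners that were lower, PPP2R1A, with 10346 exonic bases, is also longer than the median, and PPP2CB, with 4510, is shorter. On all 8 samples, the length correction and the length and GC correction each called 0 partners. The replicate block with the length and GC correction called 4, among 458 calls over 13412 genes. The part of the length trend in these partner values was not tested.

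**Figure D4:**
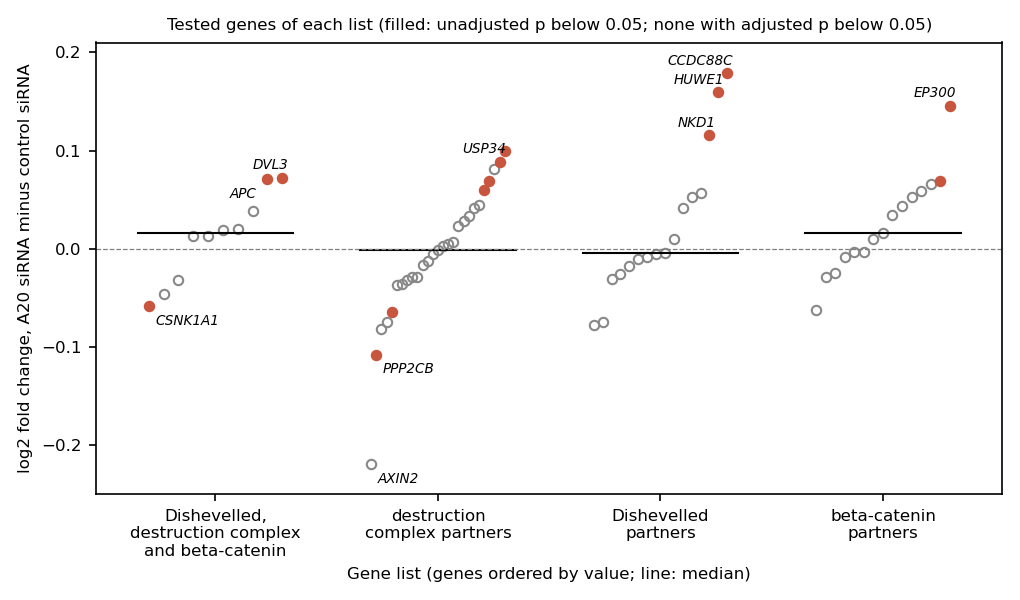
Log2 fold change of A20 siRNA over control siRNA (vertical axis) for the tested genes of the 4 lists (horizontal axis), each gene a circle ordered by value within its list, filled where the unadjusted p-value is under 0.05, with a line at the list's median. The medians of the lists lie between -0.00470 and 0.02, and the largest values are 0.18 for CCDC88C and 0.16 for HUWE1 above 0 and -0.22 for AXIN2 below 0.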

How the data were processed

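The 8 RNAseq samples were from RKO cells, with groups and replicate numbers taken from the labels. The authors captured polyadenylated RNA, trimmed the reads with Trimmomatic and mapped them with STAR to GRCh38.p7. STAR also gave the deposited raw counts of uniquely mapping reads per gene. Tool versions, the GENCODE release and the strand setting are not given in the sources used here, so reads from overlapping and antisense genes cannot be told apart. The deposited counts cover 57992 genes, 29238 of them without a count. GENCODE release 44 supplied symbols, coordinates and lengths for 56948.

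Counts were tested with edgeR 4.0.16 (R 4.3.3) by the quasi-likelihood method, with TMM normalization, filterByExpr at a minimum count of 10 (13412 genes kept), no covariates, and Benjamini-Hochberg adjustment over all genes tested, at a threshold of 0.05. Intervals are 95%. The pipeline was tested on simulated data. All pairs of replicates differed by more than sampling noise (chi-square per degree of freedom 1.29 to 3.43).

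All 10 genes of the report were tested, and all passed the filter. They, and the partner lists, were chosen with earlier results of these data known. Genes named otherwise were TNFAIP3, RIPK4, paralogs (AXIN2, APC2, FBXW11, CSNK1D, CSNK1E, JUP), cell type markers and, from each list, every called gene or else the 2 of smallest p, apart from those said to be named after their values were seen. Alternatives were DESeq2 1.42.0, RLE scaling, no filter on low counts, a filter of 10 counts in all samples, limma-voom (limma 3.58.1), the replicate number as a block, loess trends (span 0.5) removed for exonic length alone or with GC content, the block with both, and each sample left out in turn. Leaving out both libraries of opposite length trend was added after seeing the data. Reporter, blot and qPCR data are not analysed here.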

Additional observations from a re-analysis of the deposited data

Results flagged for a closer look

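Within groups of 4 samples, a value was singled out where its gap to the nearest sample, divided by the range of the group, exceeded Dixon's 95% critical value. Of 40 groups examined 5 did so, where chance at 1 in 20 gives 2. Control replicate 2 was lowest for GSK3B at 144.8 CPM (gap over range 0.852). A20 siRNA replicate 2 was highest for CTNNB1 at 560.6 CPM (0.947) and lowest for TNFAIP3 at 3.01 CPM (0.847). Control replicate 1 was highest for CCDC88C at 40.0 CPM (0.855) and for EP300 at 38.5 CPM (0.951).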

How the results depend on the processing

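Of 180 values of the 10 genes under alternatives, 170 kept their direction and their side of the threshold, 8 changed sign and 2, both of APC, passed the threshold. With samples left out in turn, the number of the 10 genes with an adjusted p-value under 0.05 was 0 to 1 (1 without control replicate 1), and it was 1 without both libraries of opposite length trend, an alternative chosen after seeing the data. The log2 fold changes that changed sign were those of DVL2 (-0.00120 to 0.0233 with samples left out, -0.00225 without both libraries), GSK3A (-0.0133 to 0.0350, and -0.00979) and GSK3B (-0.0173 with the length correction, -0.00861 with length and GC, -0.00824 with the replicate block added). TNFAIP3 stayed between -0.77 and -0.67 with samples left out.

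Over all genes, 167 calls among 13412 tested genes became 624 among 28754 with no low-count filter. They became 474 with the replicate block, 458 with the replicate block and the length and GC correction, and 1097 without both libraries. With samples left out they ranged from 12 to 997: 997, 18, 45 and 16 without control replicates 1 to 4, and 200, 277, 12 and 51 without A20 siRNA replicates 1 to 4. The split was 85 higher and 82 lower, 83 and 122 by DESeq2, and 49 and 151 without A20 siRNA replicate 1. The 0 calls among pathway partners became 4 with no filter, 2 by DESeq2, 4 with the replicate block (PPP2CB, CCDC88C, HUWE1 and USP34), 4 with the replicate block and the length and GC correction (PPP2R1A, at -0.09 and adjusted p = 0.0395, in place of USP34), 7 without both libraries, and 0 to 6 with samples left out (6 without control replicate 1, 1 and 3 without A20 siRNA replicates 1 and 2). The cause of these shifts was not tested. Deviations of same-numbered samples correlated at 0.0838, 0.0336, 0.0354 and -0.00982, so the numbers were not taken to pair the samples. Of the 10 genes' ranks per length, 8 moved with the longest transcript.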
